A study of Mus musculus with 9 samples.

Results

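The enzymes described here make NAD or phosphorylate it to NADP in mammalian cells. Their 10 genes, Nampt, Nmrk1, Nmnat1, Nmnat2, Nmnat3, Naprt, Nadsyn1, Qprt, Nadk and Nadk2, were taken by symbol from a table of 35112 genes, and each symbol matched 1 row. The study measured polyadenylated RNA in the brains of wild-type C57BL/6 mice. The first group had an intracerebral haemorrhage (ICH, bleeding into the brain) and was given P7C3-A20, the second had ICH alone, and the third was a sham control, with 3 separate mice in each group and the tissue taken at 72 hours. The labels give no brain region, dose, age or sex, so the position of the sampled tissue relative to the haemorrhage is not known.

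NAD carries electrons in energy metabolism and is also consumed by signalling and repair enzymes, so cells must keep making it. In the salvage route, NAMPT turns nicotinamide into nicotinamide mononucleotide, which NMNAT enzymes join to ATP to form NAD. Nicotinamide riboside enters at the same intermediate through NMRK1. The Preiss-Handler route starts from nicotinic acid with NAPRT, the kynurenine route from tryptophan ends with QPRT, and both finish at the amidation step of NADSYN1. NADK in the cytosol and NADK2 in mitochondria phosphorylate NAD. Neurons depend on the short-lived axonal enzyme NMNAT2 for axon survival. P7C3-A20 comes from a family of neuroprotective compounds that earlier work linked to the NAMPT enzyme.

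The promoter windows of 3 members whose transcripts passed the test in at least 1 comparison are shown first, as the sequence context of the transcripts that were measured. RefSeq windows on GRCm38.p6, from 250 bases before the start to 50 after it, matched 8 of the 10 members, and Nadk has a pair of them. Each line gives the window 5′ to 3′ in the direction of the gene, with capitals on every match, on either strand, to GGGCGG (a GC box), CACGTG (an E-box), TGACG (a CRE half-site, also part of the full CRE, TGACGTCA), TATAAA or CCAAT.
Nampt, chr12:32820085-32820384, plus strand: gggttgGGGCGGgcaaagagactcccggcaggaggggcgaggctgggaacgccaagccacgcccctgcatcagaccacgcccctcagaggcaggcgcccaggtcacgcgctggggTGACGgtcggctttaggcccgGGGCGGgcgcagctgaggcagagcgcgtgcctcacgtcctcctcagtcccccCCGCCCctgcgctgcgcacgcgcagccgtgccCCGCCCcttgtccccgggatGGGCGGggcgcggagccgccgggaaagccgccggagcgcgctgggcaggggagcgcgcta
Nmnat2, chr1:152954851-152955150, plus strand: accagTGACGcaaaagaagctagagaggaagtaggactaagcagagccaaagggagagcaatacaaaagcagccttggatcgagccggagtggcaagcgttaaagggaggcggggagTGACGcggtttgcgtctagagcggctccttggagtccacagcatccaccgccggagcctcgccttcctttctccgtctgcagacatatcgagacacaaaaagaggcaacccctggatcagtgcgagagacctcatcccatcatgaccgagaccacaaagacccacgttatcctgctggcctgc
Nadk, first window, chr4:155562131-155562430, plus strand: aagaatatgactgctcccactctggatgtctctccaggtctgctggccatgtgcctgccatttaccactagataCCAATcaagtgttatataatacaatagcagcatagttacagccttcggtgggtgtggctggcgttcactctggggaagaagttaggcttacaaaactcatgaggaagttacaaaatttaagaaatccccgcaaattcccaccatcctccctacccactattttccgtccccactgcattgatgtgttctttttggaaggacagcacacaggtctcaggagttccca
Nadk, second window, chr4:155563565-155563864, plus strand: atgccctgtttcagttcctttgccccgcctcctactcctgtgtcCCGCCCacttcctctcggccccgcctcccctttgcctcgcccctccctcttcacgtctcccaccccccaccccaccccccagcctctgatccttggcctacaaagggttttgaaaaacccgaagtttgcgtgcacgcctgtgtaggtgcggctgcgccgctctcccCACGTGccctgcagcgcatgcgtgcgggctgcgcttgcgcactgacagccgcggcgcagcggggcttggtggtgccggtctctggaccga

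The Nampt window held 76.3% G and C, against a median of 52.7% over 32851 windows in the table. It had 5 GC boxes and 1 CRE half-site. A GC box stood in 35.7% of all windows and 5 or more in 2.71%. The Nmnat2 window held 56.3% G and C, no GC box and 2 CRE half-sites, a count that 5.01% of windows reached. The Nadk windows differed from each other, the first with 46.7% G and C and 1 CCAAT box, the second with 67.0%, 1 GC box and 1 E-box. An E-box stood in 7.15% of windows, a CCAAT box in 37.4%, a TATA box in 13.6%, a full CRE in 1.79% and a CRE half-site in 20.8%. An antioxidant response element core (TGACNNNGC), searched as well and found in 12.4% of windows, matched none of these 4. These matches describe letters only.

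Each library held 51537047 to 63324728 estimated counts. Mitochondrially encoded transcripts took 9.14% to 18.5% of them and under 11% in 1 library of each group, ICH+P7C3-A20 2, ICH 3 and sham 3. Neuron, astrocyte and oligodendrocyte markers were detected in all libraries, as a label of brain implies. Summed over 6 neuron markers, libraries held 3395 to 5202 CPM (the count scaled to library size) in ICH+P7C3-A20, 2566 to 2825 in ICH and 4087 to 4526 in sham. The chi-square distance per gene was taken over genes above a minimum summed count in the 2 libraries compared, mitochondrial ones included. It was largest from the low-mitochondrial library of each group to its other 2. It was 142.9 and 163.8 for ICH+P7C3-A20 2, 66.6 and 97.3 for ICH 3 and 185 and 204 for sham 3. The other libraries of those groups stood 63.8, 28.3 and 31.2 apart. Counts were scaled only to library totals, so this distance includes the mitochondrial difference and is not a separate observation of it. In markers it was ICH+P7C3-A20 1 that differed from its group, with 5202 CPM of neuron markers and 5504 CPM of oligodendrocyte markers, against 3395 to 3704 and 10710 to 11500 in ICH+P7C3-A20 2 and 3. Microglia markers summed to 503.5 to 804.1 CPM in ICH+P7C3-A20, 1131 to 1196 in ICH and 279.3 to 345.9 in sham, and monocyte and macrophage markers to 260.2 to 453.9, 876.5 to 1131 and 58.0 to 86.8 CPM in the same groups. Neutrophil markers summed to 20.7 to 38.0 CPM in ICH+P7C3-A20, 39.3 to 69.6 in ICH and 8.40 to 9.20 in sham, and 4 of the 5 tested were higher in ICH than in sham by edgeR. The 6th neutrophil marker, Ly6g, was listed at 0 in all ICH and sham libraries and was not tested. Cxcr2 was listed at 0 in all sham libraries.

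Nadk, Nmnat2, Nampt and Nadk2 were the most abundant of the 10 transcripts per length in each group. Levels between genes are given here in TPM, which scales by transcript length. In ICH+P7C3-A20 brains Nadk averaged 38.8 ± 9.42 TPM (SD, n = 3 here and below), Nmnat2 34.6 ± 6.31, Nampt 24.1 ± 7.69 and Nadk2 18.1 ± 4.21. The ranges of each neighbouring pair overlapped over libraries. Within every ICH+P7C3-A20 library, however, Nmnat2 stood above Nampt and Nampt above Nadk2, while the order of Nadk and Nmnat2 varied. In ICH brains the order was Nadk at 48.0 ± 5.31 TPM, Nampt at 34.4 ± 6.94, Nmnat2 at 27.6 ± 2.38 and Nadk2 at 21.1 ± 1.46, with no overlap between neighbours. Sham brains had Nmnat2 at 39.7 ± 2.23 TPM, Nadk at 37.9 ± 9.68, Nampt at 26.7 ± 4.65 and Nadk2 at 17.3 ± 4.37. There the ranges of Nmnat2, Nadk and Nampt overlapped as neighbours, and that of Nampt lay wholly above that of Nadk2. Within every sham library, both Nmnat2 and Nadk stood above Nampt. Nampt thus stood above Nmnat2 in the ICH libraries, where Nampt had 30.1 to 42.4 TPM and Nmnat2 24.9 to 29.5 TPM, and in no library of the other groups.

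The remaining 6 transcripts averaged under 12 TPM in every group. Naprt averaged 6.64 ± 2.35 TPM in ICH+P7C3-A20, 11.5 ± 5.13 in ICH and 3.75 ± 1.43 in sham, and Nmnat1 3.86 ± 0.753, 5.31 ± 0.493 and 4.04 ± 0.580 TPM in those groups. Nadsyn1 averaged 2.84, 3.53 and 2.70 TPM, Nmrk1 2.46, 3.48 and 2.53 TPM and Nmnat3 1.54, 1.87 and 2.03 TPM in the same order. The ranges of Nadsyn1 and Nmrk1 over libraries overlapped in each group. Qprt was lowest in all 3 groups, at 0.354, 0.584 and 0.156 TPM.

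**Figure D1:**
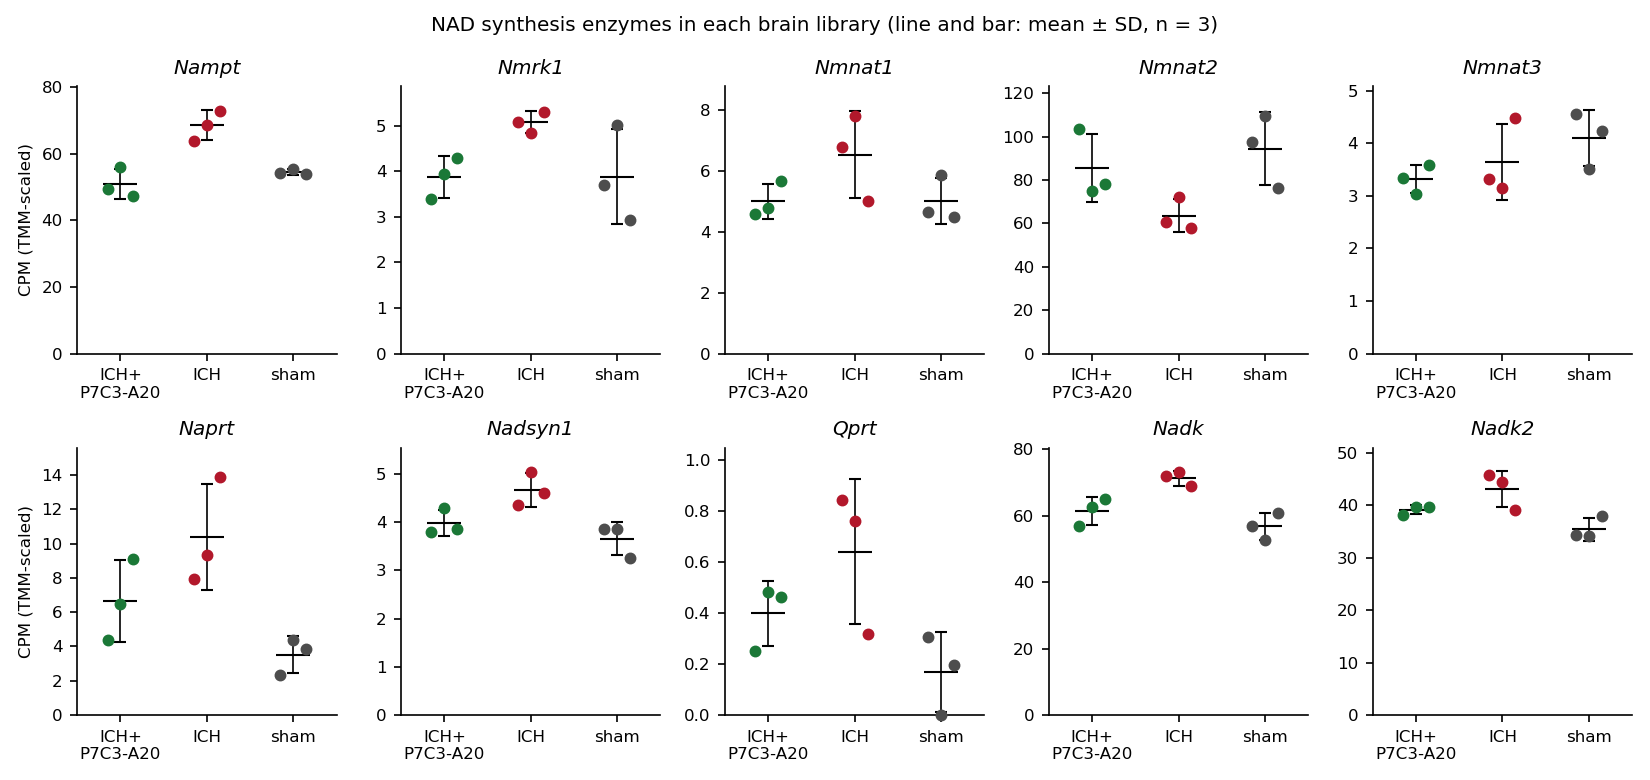
CPM of each enzyme in each library (TMM-scaled), in ICH+P7C3-A20, ICH and sham brains; points are libraries, the horizontal line and bar are the mean ± SD of 3. Nampt in ICH brains sits between 63.9 and 72.9 CPM, above every other library, and Nmnat2 in ICH brains sits below every other library.

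The comparison of ICH with sham addresses what the haemorrhage does to the transcripts of these enzymes. Nampt, Naprt and Nadk rose in ICH brains and Nmnat2 fell, so that the test passed 4 of 10 members, 3 higher and 1 lower. Naprt, which opens the Preiss-Handler route, was 2.94-fold higher, while Nampt and Nadk were 1.26-fold and 1.25-fold higher. A gene was called when edgeR's quasi-likelihood test, fitted on all 9 libraries, gave a Benjamini-Hochberg adjusted p under 0.05 over 21900 tested genes. All 10 members passed the filter on low counts. Of all genes tested, 26% were called, 15.6% higher and 10.4% lower. The median log2 change was 0.34 over the members and 0.00 over all tested genes. ICH and sham libraries did not overlap in CPM for 7 of 10 members, against 42.1% of all tested genes.

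The comparison of ICH+P7C3-A20 with ICH addresses the compound in brains with a haemorrhage. Nampt fell and was the 1 member of 10 to pass the test, where 8.74% of all tested genes were called, 6.05% lower and 2.69% higher. It was 1.35-fold lower in ICH+P7C3-A20 brains. Nmnat2 and Nadk reached an unadjusted p under 0.05 without passing, Nmnat2 at a higher mean and Nadk at a lower one. The median log2 change was -0.31 over the members and -0.01 over all tested genes. Libraries of the 2 groups did not overlap for 5 of 10 members, against 33.6% of all tested genes.

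No member was called by edgeR between ICH+P7C3-A20 and sham, where 5.32% of all tested genes were called. Naprt alone reached an unadjusted p under 0.05, and DESeq2 and limma also called 0 members. The median log2 change was 0.06 over the members and 0.03 over all tested genes. Only Nadk2 did not overlap between these groups, 1 of 10 members against 20.4% of all tested genes. The 3 comparisons share libraries, so the values below stand side by side and are not separate evidence.

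**Figure D2:**
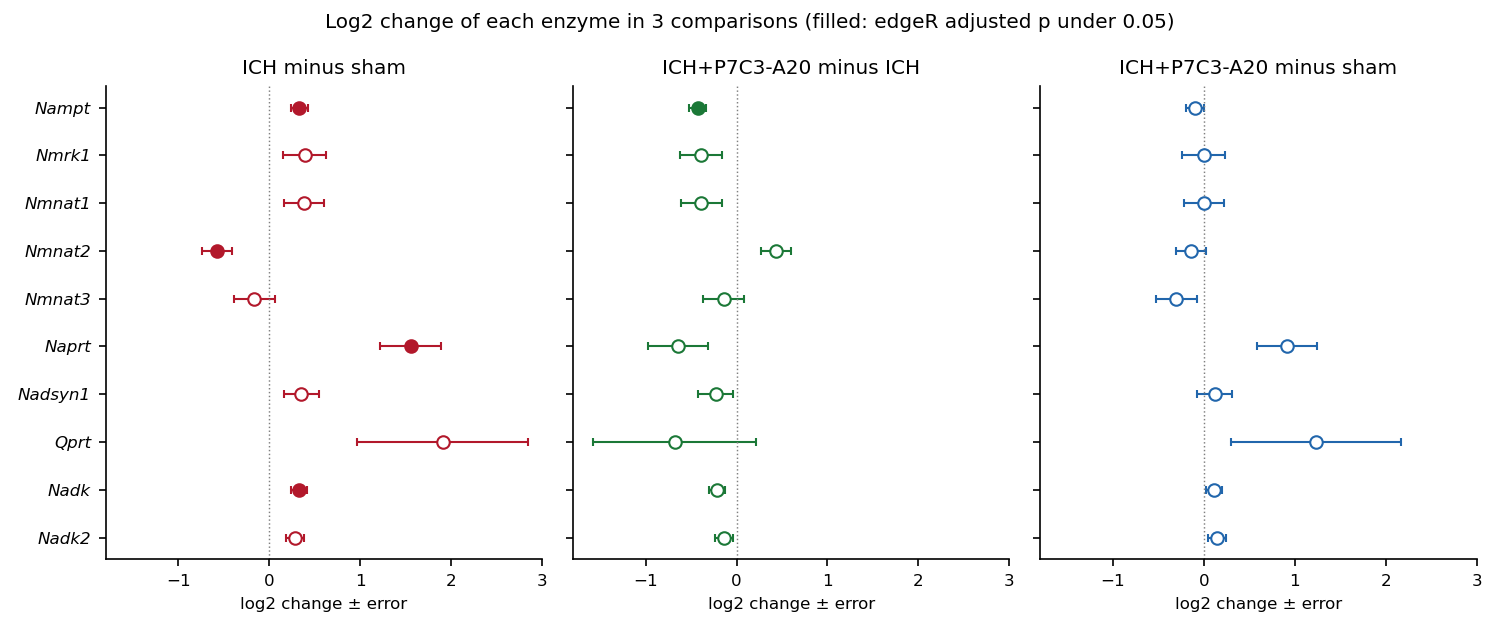
Log2 change (first group minus second) of each enzyme with its error, in 3 comparisons; filled circles have an edgeR adjusted p under 0.05. For ICH minus sham Nampt, Naprt and Nadk are filled to the right of 0 and Nmnat2 to the left, for ICH+P7C3-A20 minus ICH Nampt alone is filled, at -0.43, and for ICH+P7C3-A20 minus sham none is.

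Nampt (ENSMUSG00000020572, chr12:32819545-32853349, plus strand) encodes the rate-limiting enzyme of NAD salvage, and its GC-rich window is printed above. Its level was 49.4, 56.1 and 47.2 CPM in ICH+P7C3-A20 libraries 1 to 3, 63.9, 68.7 and 72.9 in ICH and 54.1, 55.4 and 53.7 in sham. Every ICH library thus lay above every library of the other groups, while sham libraries lay within the range of the ICH+P7C3-A20 ones. Against sham, Nampt in ICH rose by 0.33 ± 0.0954 in log2 units (edgeR adjusted p = 0.0267), the error being the change over the root of edgeR's F. In ICH+P7C3-A20 it fell by 0.43 ± 0.0956 against ICH (edgeR adjusted p = 0.0229). Between ICH+P7C3-A20 and sham the log2 change was -0.10 ± 0.0955 (edgeR adjusted p = 0.684). A 95% interval from t on the 6 residual degrees of freedom ran from -0.33 to 0.14. edgeR's test also borrows degrees of freedom across genes, so this interval is wider than 1 that matches its p-value.

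Both Nampt calls rested on narrow margins. Against sham, the edgeR adjusted p became 0.0750 without ICH 2, 0.110 without ICH 3 and 0.0770, 0.0533 and 0.0503 without sham 1, 2 and 3. For ICH+P7C3-A20 against ICH it became 0.0774 without ICH+P7C3-A20 1, the library with the most neuron markers, 0.0712 without ICH+P7C3-A20 3 and 0.0526, 0.0860 and 0.101 without ICH 1, 2 and 3. The log2 change itself lay between 0.29 and 0.38 and between -0.50 and -0.38 when each library was left out in turn. limma on log2(FPKM + 1) gave 0.35 and -0.44 with adjusted p of 0.123 and 0.0978, and its fits with a pseudocount of 0.1 or no filter gave 0.125 and 0.230 for ICH minus sham and 0.103 and 0.205 for ICH+P7C3-A20 minus ICH. Without a filter on low counts the edgeR adjusted p was 0.0556 for ICH minus sham, and the other call held. Without ICH+P7C3-A20 2 the change against ICH was -0.50 and kept its call (edgeR adjusted p = 0.0205). With the mitochondrial share as a covariate the changes were 0.32 and -0.40 and both calls held, with edgeR adjusted p of 0.0138 and 0.0172.

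**Figure D3:**
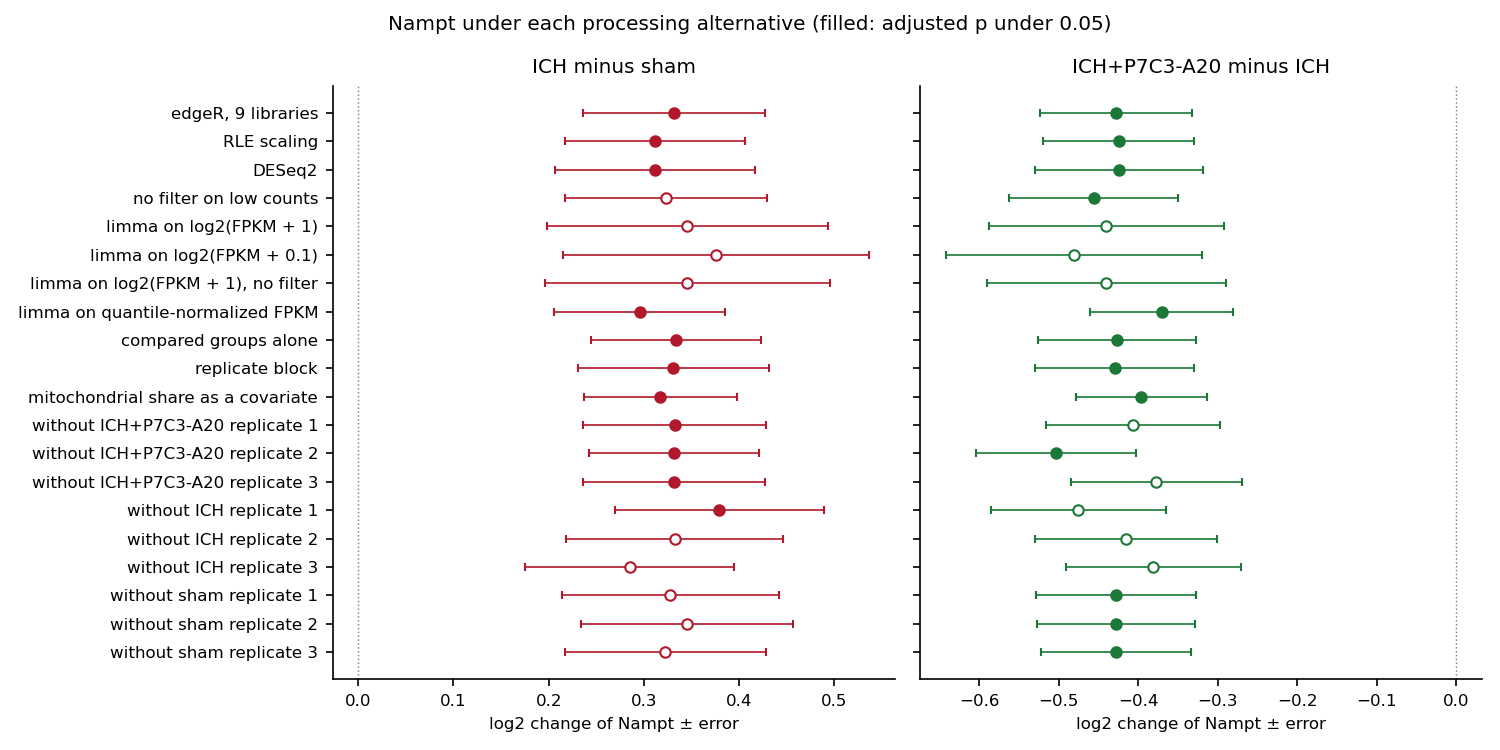
Log2 change of Nampt with its error under each processing alternative, for ICH minus sham (left) and ICH+P7C3-A20 minus ICH (right); filled circles have an adjusted p under 0.05. All values on the left lie between 0.29 and 0.38 and all on the right between -0.50 and -0.37, and leaving out libraries or testing FPKM without quantile scaling empties many circles.

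Nmrk1 (ENSMUSG00000037847, chr19:18631950-18652194, plus strand), the nicotinamide riboside kinase that feeds the same intermediate, was expressed at a lower level. Its libraries held 3.40, 3.95 and 4.30 CPM in ICH+P7C3-A20, 5.09, 4.84 and 5.31 in ICH and 3.70, 5.02 and 2.94 in sham. All ICH+P7C3-A20 libraries lay below all ICH libraries, while sham spanned both. The log2 change was 0.39 ± 0.234 for ICH minus sham (edgeR adjusted p = 0.269) and -0.39 ± 0.234 for ICH+P7C3-A20 minus ICH (edgeR adjusted p = 0.353).

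Nmnat2 (ENSMUSG00000042751, chr1:152954993-153119261, plus strand) encodes the adenylyltransferase of axons. It stood at 103.7, 75.2 and 78.3 CPM in ICH+P7C3-A20, 60.5, 72.1 and 58.0 in ICH and 97.8, 109.6 and 76.2 in sham. All ICH libraries were the lowest of the 9, and ICH+P7C3-A20 overlapped with sham. In ICH, Nmnat2 fell by 0.57 ± 0.163 in log2 units against sham, a 1.49-fold lower level (edgeR adjusted p = 0.0254). That call was lost without ICH 1, ICH 3, sham 1 or sham 2, with edgeR adjusted p of 0.0891, 0.0955, 0.0760 and 0.0913, and with limma on unfiltered log2(FPKM + 1) (adjusted p = 0.0529). For ICH+P7C3-A20 against ICH the change was 0.43 ± 0.163 (edgeR adjusted p = 0.131), and 0.27 without ICH+P7C3-A20 1 (edgeR adjusted p = 0.422). Against sham the ICH+P7C3-A20 change was -0.14 ± 0.163 (edgeR adjusted p = 0.737).

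Neuron markers moved with Nmnat2. All 6 were lower in ICH than in sham by edgeR, with a median log2 change of -0.64, and 2 of 6 were higher in ICH+P7C3-A20 than in ICH, with a median of 0.62. Expressed per 1000 CPM of the summed neuron markers, Nmnat2 stood at 19.9, 22.1 and 21.1 in ICH+P7C3-A20, 21.4, 25.6 and 22.6 in ICH and 21.6, 25.4 and 18.7 in sham. All 3 groups overlapped on that scale, with means of 21.1 ± 1.11, 23.2 ± 2.15 and 21.9 ± 3.38. In RNA from whole tissue, fewer cells of a type and less RNA per cell cannot be told apart.

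**Figure D4:**
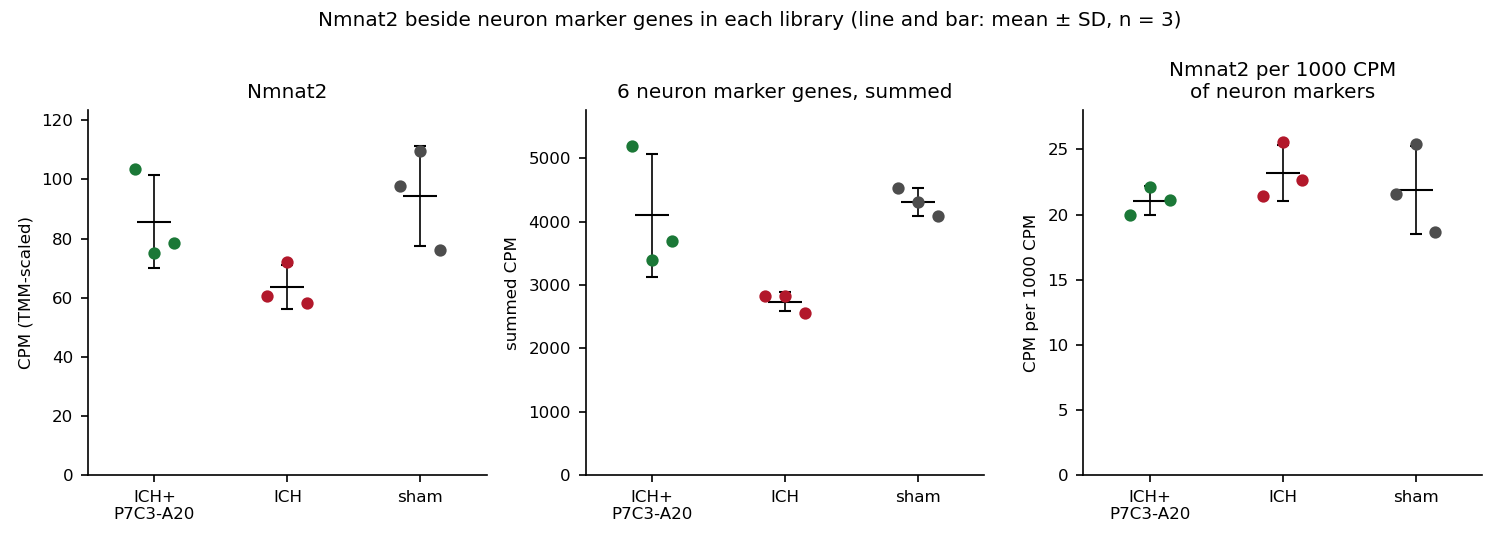
Nmnat2 in CPM (left), 6 neuron marker genes in summed CPM (middle) and Nmnat2 per 1000 CPM of those markers (right) in ICH+P7C3-A20, ICH and sham libraries, with the mean ± SD of 3. ICH libraries are lowest in the first 2 panels, and the groups overlap in the third, between 18.7 and 25.6.

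Nmnat1 (ENSMUSG00000028992, chr4:149467572-149485202, minus strand), the nuclear adenylyltransferase, had 4.58, 4.77 and 5.66 CPM in ICH+P7C3-A20, 6.79, 7.81 and 5.01 in ICH and 4.64, 5.89 and 4.50 in sham. ICH 1 and 2 were the highest of the 9 libraries and ICH 3 lay among the others. The log2 change was 0.38 ± 0.220 for ICH minus sham (edgeR adjusted p = 0.243) and -0.39 ± 0.221 for ICH+P7C3-A20 minus ICH (edgeR adjusted p = 0.329). Nmnat1 overlaps Tmem274 on the opposite strand over 6172 bases, and the strand setting of the counting is not given in the sources used here.

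Nmnat3 (ENSMUSG00000032456, chr9:98287435-98411391, plus strand), the mitochondrial form, held 3.33, 3.04 and 3.58 CPM in ICH+P7C3-A20, 3.32, 3.16 and 4.48 in ICH and 4.55, 3.51 and 4.23 in sham. The 3 groups overlapped throughout. Its log2 changes were -0.17 ± 0.225, -0.14 ± 0.226 and -0.30 ± 0.226 for ICH minus sham, ICH+P7C3-A20 minus ICH and ICH+P7C3-A20 minus sham (edgeR adjusted p = 0.660, 0.779 and 0.554). Gm28530 lies within it on the same strand over 577 bases, where reads can be assigned to either gene.

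Seen as shares of the NMNAT transcripts, the same values set ICH libraries apart for Nmnat2 and Nmnat1. A fall in the share of 1 gene raises that of the others, and edgeR called neither Nmnat1 nor Nmnat3. Nmnat2 made up 84.1% to 89.2% of the summed TPM of the 3 NMNAT genes in ICH+P7C3-A20, 78.4% to 79.9% in ICH and 85.0% to 87.8% in sham, with all ICH libraries below the rest. The share of Nmnat1 was 7.48% to 11.5% in ICH+P7C3-A20, 13.1% to 16.7% in ICH and 7.88% to 9.56% in sham, again with ICH apart. Nmnat3 took 3.30% to 4.42%, 4.01% to 7.08% and 3.24% to 5.43%, and these ranges overlapped. The ratio of Nampt to Nmnat2 in TPM was 0.545 to 0.853 in ICH+P7C3-A20, 1.09 to 1.44 in ICH and 0.578 to 0.807 in sham. These shares and ratios describe the libraries and carry no test.

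Naprt (ENSMUSG00000022574, chr15:75890956-75894481, minus strand) commits nicotinic acid to NAD synthesis. It was at 4.37, 6.46 and 9.11 CPM in ICH+P7C3-A20, 7.92, 9.36 and 13.9 in ICH and 2.31, 4.40 and 3.88 in sham. ICH lay wholly above sham, and ICH+P7C3-A20 spanned the gap and overlapped with both. Against sham it rose in ICH by 1.56 ± 0.336 in log2 units (edgeR adjusted p = 0.00648), and this call held in each of the 9 fits with 1 library left out, the change then lying between 1.29 and 1.74. On quantile-normalized FPKM with limma the change was 0.91, with an adjusted p of 0.0127. The ICH+P7C3-A20 change was -0.64 ± 0.328 against ICH (edgeR adjusted p = 0.266) and 0.91 ± 0.332 against sham (edgeR adjusted p = 0.170).

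Immune, astrocyte and endothelial markers rose in ICH against sham, as Naprt, Nampt and Nadk did. All 6 microglia, all 6 monocyte and macrophage, 5 of 6 astrocyte and all 6 endothelial markers were higher in ICH than in sham by edgeR. Astrocyte markers summed to 4352 to 5203 CPM in ICH+P7C3-A20, 5332 to 6345 in ICH and 2602 to 2786 in sham. The sums hide a mixed set. For ICH+P7C3-A20 minus ICH, 3 of the 6 astrocyte markers were called lower and 1 higher by edgeR. Their log2 changes ran from -1.39 to 0.68. Endothelial markers summed to 193.1 to 240.3, 296.7 to 318.1 and 127.6 to 152.3 CPM in the same groups, beside the immune sums given above. Per 1000 CPM of the microglia markers, Naprt was 8.69 to 11.3 in ICH+P7C3-A20, 6.90 to 12.3 in ICH and 8.05 to 15.7 in sham, so the groups overlapped. That overlap depends on the marker list, and no other list was used as a scale for Naprt. The median log2 change for ICH minus sham was 1.97 over microglia markers and 4.96 over monocyte and macrophage markers. Oligodendrocyte markers summed to 5504 to 11500 CPM in ICH+P7C3-A20, 12370 to 14980 in ICH and 8946 to 11040 in sham. edgeR called 0 of those 6 in any comparison. Between ICH+P7C3-A20 and sham, where no member was called, all 6 microglia and all 6 monocyte and macrophage markers were higher. So were 3 of 6 astrocyte and 3 of 6 endothelial markers. The part of the marker genes in the Naprt, Nampt and Nadk results was not tested. Naprt also overlaps Eef1d, a translation elongation factor gene, on the same strand over 277 bases, where reads can be assigned to either gene. Eef1d rose in ICH by 0.52 ± 0.102 in log2 units against sham (edgeR adjusted p = 0.00374), less than Naprt did, and its part in the Naprt result was not tested.

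Nadsyn1 (ENSMUSG00000031090, chr7:143795584-143822849, minus strand), which completes the Preiss-Handler and kynurenine routes, held 3.79, 4.29 and 3.85 CPM in ICH+P7C3-A20, 4.35, 5.05 and 4.60 in ICH and 3.86, 3.86 and 3.26 in sham. ICH lay above both other groups with no overlap, by a margin of less than 0.1 CPM over ICH+P7C3-A20. Its log2 change was 0.35 ± 0.193 for ICH minus sham (edgeR adjusted p = 0.224) and -0.23 ± 0.193 for ICH+P7C3-A20 minus ICH (edgeR adjusted p = 0.531).

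Qprt (ENSMUSG00000030674, chr7:127107114-127122226, minus strand), whose enzyme acts late in the kynurenine route and upstream of NADSYN1, was near the limit of detection. It had 12, 31 and 24 estimated counts in ICH+P7C3-A20, 48, 41 and 19 in ICH and 17, 0 and 13 in sham. ICH libraries were above sham libraries in CPM, at 0.315 to 0.842 against 0 to 0.307. The log2 change for ICH minus sham was 1.91 ± 0.940 (edgeR adjusted p = 0.171), and -0.68 ± 0.897 for ICH+P7C3-A20 minus ICH (edgeR adjusted p = 0.719). A difference was not detectable at this depth, and the 95% interval for ICH minus sham, built as for Nampt, ran from -0.39 to 4.21.

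Nadk (ENSMUSG00000029063, chr4:155562378-155591001, plus strand), the cytosolic kinase that makes NADP, was at 56.8, 62.5 and 65.0 CPM in ICH+P7C3-A20, 71.9, 73.2 and 68.8 in ICH and 56.9, 52.7 and 60.9 in sham. All ICH libraries were above the other 6, which overlapped. In ICH it rose by 0.33 ± 0.0926 in log2 units against sham (edgeR adjusted p = 0.0247). Leaving out ICH 1, 2 or 3 or sham 1 or 2 ended the call, with edgeR adjusted p of 0.0803, 0.0857, 0.0541, 0.0707 and 0.0830. It was also lost without a filter on low counts (edgeR adjusted p = 0.05 after rounding, above the threshold) and in the 3 limma fits on FPKM that were not quantile-scaled (adjusted p = 0.0970, 0.0974 and 0.183). The ICH+P7C3-A20 change was -0.21 ± 0.0926 against ICH (edgeR adjusted p = 0.186) and 0.11 ± 0.0926 against sham (edgeR adjusted p = 0.604).

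Nadk2 (ENSMUSG00000022253, chr15:9071260-9110891, plus strand), its mitochondrial counterpart, had 38.2, 39.6 and 39.7 CPM in ICH+P7C3-A20, 45.8, 44.4 and 39.2 in ICH and 34.3, 34.1 and 37.9 in sham. Both haemorrhage groups lay wholly above sham and overlapped with each other. Against sham the log2 change in ICH was 0.28 ± 0.0973 and just missed the threshold (edgeR adjusted p = 0.0547). DESeq2 called it (adjusted p = 0.0473), as did edgeR with the mitochondrial share as a covariate (adjusted p = 0.0379) and without ICH 3 or sham 3 (adjusted p = 0.0489 and 0.0368). The ICH+P7C3-A20 change was -0.14 ± 0.0973 against ICH (edgeR adjusted p = 0.440). In TPM, Nadk exceeded Nadk2 by 2.03 to 2.24 times in ICH+P7C3-A20, 2.15 to 2.40 in ICH and 2.12 to 2.27 in sham, which overlapped.

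The other genes of NAD metabolism comprised 10 of the kynurenine route, 10 that handle or transport precursors (9 tested, since Nnt is listed in 2 rows and was left out) and 18 that consume NAD. Among the consumers 8 of 18 were called for ICH minus sham, 7 higher and 1 lower, beside the 26% of all genes. Among the precursor genes 2 of 9 were called, both higher, and of the kynurenine genes 1 of 10, lower. The consumer count was 5 without ICH 2 or without sham 1 and 10 without sham 3. The kynurenine count depended on the fit. DESeq2 called 3 (Haao and Kmo higher, Ido1 lower). edgeR called 2 higher and 0 lower without sham 1, and 1 higher and 0 lower without sham 3. Unfiltered limma called 1 higher and 0 lower. The count was 0 with the replicate block and without ICH+P7C3-A20 3 or any 1 of the ICH libraries. It was also 0 by filtered limma on log2(FPKM + 1) or log2(FPKM + 0.1), which tested only 3 of the 10 genes. Median log2 changes were 0.24, 0.31 and 0.87 for consumers, precursor genes and kynurenine genes, beside 0.00 over all tested genes. Of the 10 kynurenine genes 6 had a positive change, and edgeR on all 9 libraries called 0 of those. Low counts limit that median. Sham libraries 1 to 3 held 30, 13 and 0 estimated counts of Haao and 28, 15 and 9 of Kmo. For ICH+P7C3-A20 minus ICH, 4 of 18 consumers and 1 of 9 precursor genes were called, all lower, beside 8.74% of all genes. edgeR called 0 of 10 kynurenine genes there (1 at an unadjusted p under 0.05), and DESeq2 called 1. Median log2 changes were -0.10, -0.26 and -0.13 in the same order.

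Bst1 and Cd38, ectoenzymes that split NAD, were higher in ICH than in sham. Bst1 averaged 1.61 ± 0.859 CPM in ICH+P7C3-A20, 4.80 ± 0.814 in ICH and 0.249 ± 0.112 in sham. Against sham it rose in ICH by 4.24 ± 0.505 in log2 units (edgeR adjusted p = 0.000172), and the sham libraries held only 7 to 23 counts each. Cd38 averaged 9.76 ± 3.27 CPM in ICH+P7C3-A20, 16.3 ± 1.53 in ICH and 7.78 ± 3.07 in sham, and in ICH it rose by 1.06 ± 0.299 against sham (edgeR adjusted p = 0.0238). The Cd38 call was lost without ICH 1, ICH 2, sham 1 or sham 3, with edgeR adjusted p up to 0.0845. For ICH+P7C3-A20 minus ICH, the groups did not overlap for either gene, and neither was called. The log2 change of Bst1 was -1.57 ± 0.438 (edgeR adjusted p = 0.0511) and that of Cd38 -0.74 ± 0.297 (edgeR adjusted p = 0.157). Bst1 was called lower there by DESeq2 (adjusted p = 0.00524) and with RLE scaling, no filter on low counts or the compared groups alone, among others. Sarm1, an NAD hydrolase that drives axon degeneration, changed by 0.52 ± 0.174 in that comparison (edgeR adjusted p = 0.0907), with 18.4 to 28.6 CPM in ICH+P7C3-A20 and 14.9 to 17.1 in ICH, and DESeq2 called it higher (adjusted p = 0.0440), as did edgeR without ICH+P7C3-A20 2 (adjusted p = 0.0407).

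Of the ADP-ribosyltransferases, Parp9, Parp10 and Parp14, which belong to the group linked to interferon responses, rose in ICH and fell in ICH+P7C3-A20. Parp14 stood at 9.10, 11.6 and 12.9 CPM in ICH+P7C3-A20, 21.6, 48.9 and 34.7 in ICH and 10.8, 13.3 and 13.0 in sham. ICH was above both other groups, which overlapped. It rose in ICH by 1.51 ± 0.258 in log2 units against sham (edgeR adjusted p = 0.00178) and fell by 1.65 ± 0.260 in ICH+P7C3-A20 against ICH (edgeR adjusted p = 0.00734). Parp9 changed by 1.63 ± 0.219 and -1.55 ± 0.218 in the same comparisons (edgeR adjusted p = 0.000378 and 0.0064). Parp10 changed by 1.64 ± 0.238 and -1.45 ± 0.237 (edgeR adjusted p = 0.000635 and 0.00766). These 6 calls held in each fit with 1 library left out.

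Parp3, which acts at DNA breaks, averaged 14.3 ± 5.85 CPM in ICH+P7C3-A20, 32.7 ± 2.70 in ICH and 5.29 ± 1.39 in sham. It rose in ICH by 2.63 ± 0.310 in log2 units against sham (edgeR adjusted p = 0.000162) and fell by 1.19 ± 0.294 in ICH+P7C3-A20 against ICH (edgeR adjusted p = 0.0331), a call lost without any 1 of the ICH libraries (edgeR adjusted p up to 0.109). Parp2, a DNA repair enzyme too, rose in ICH by 0.41 ± 0.114 (edgeR adjusted p = 0.0214). Tnks, which encodes tankyrase, fell by 0.36 ± 0.0914 (edgeR adjusted p = 0.0152). Both were lost without some libraries, Parp2 without any 1 of the ICH libraries or sham 1 and Tnks without ICH 2, ICH 3 or sham 1, with edgeR adjusted p up to 0.0850 and 0.0689. The same 3 limma fits ended both calls (adjusted p up to 0.118 and 0.279), and 2 of the alternatives, limma with a pseudocount of 0.1 or without a filter, ended that of Parp3 for ICH+P7C3-A20 minus ICH (adjusted p up to 0.0782). edgeR on all 9 libraries called neither Parp1 nor Sirt1 to Sirt7 in any comparison. Without sham 3 it called Parp1, Sirt4 and Sirt7 higher in ICH than in sham (edgeR adjusted p = 0.0273, 0.0420 and 0.0319), and limma on quantile-normalized FPKM called Sirt1 lower (adjusted p = 0.0311). The immune markers moved in the same comparisons (4 of 6 microglia markers and 6 of 6 monocyte and macrophage markers were lower in ICH+P7C3-A20 than in ICH by edgeR), and their part in these results was not tested.

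**Figure D5:**
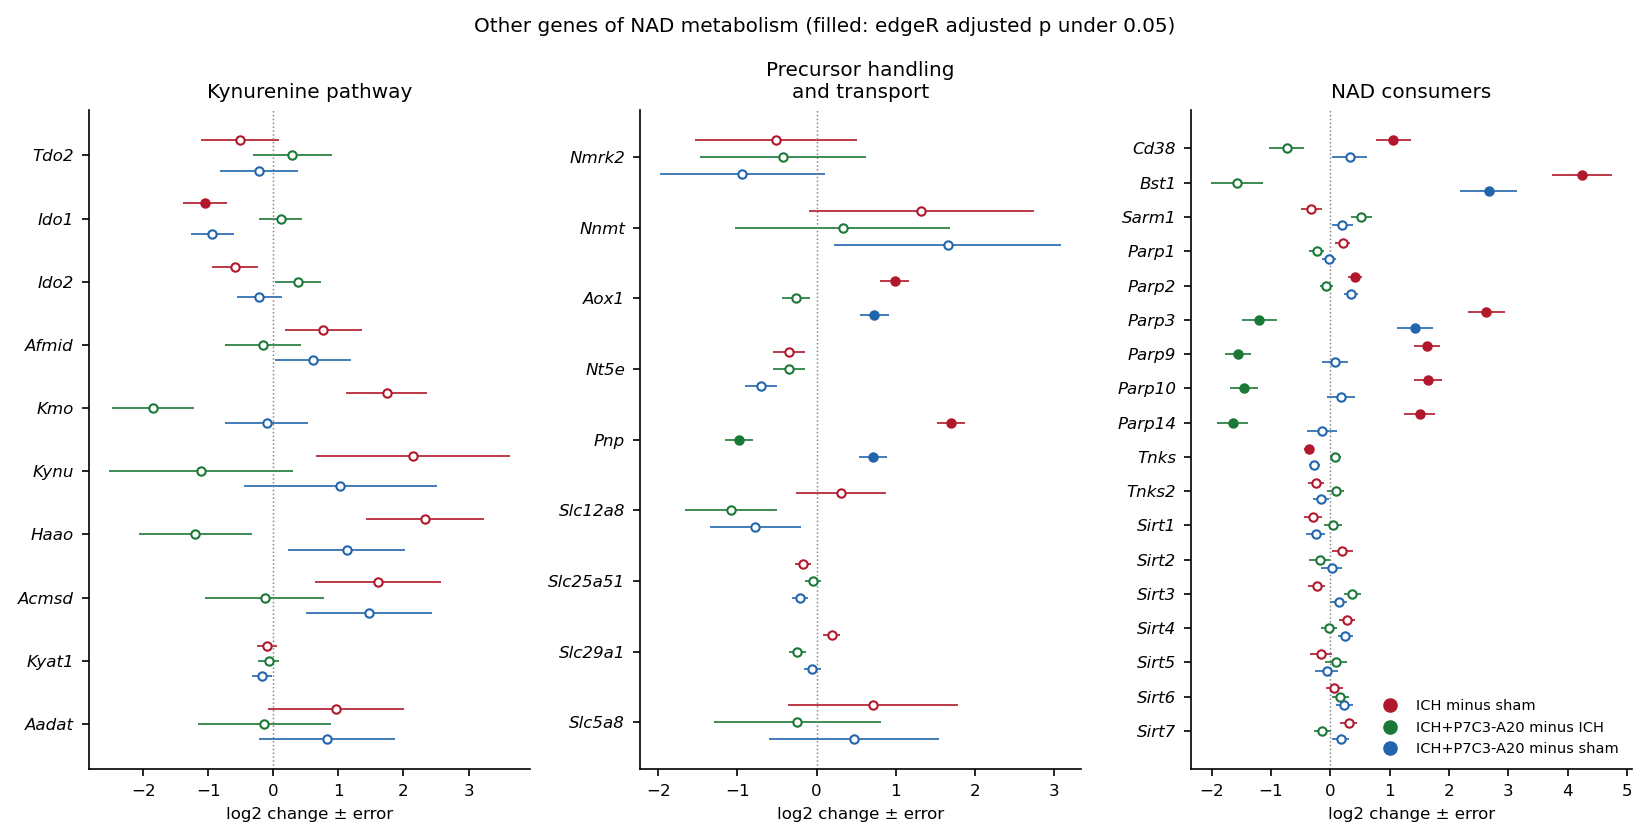
Log2 change with its error of 37 other genes of NAD metabolism in 3 comparisons, grouped as kynurenine route, precursor handling and transport, and NAD consumers; filled circles have an edgeR adjusted p under 0.05. Parp9, Parp10 and Parp14 are filled right of 0 for ICH minus sham and left of 0 for ICH+P7C3-A20 minus ICH, and Sirt1 to Sirt7 are open throughout.

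Among precursor genes, Pnp, a nucleoside phosphorylase that can also split nicotinamide riboside, had the largest change for ICH minus sham. Its level was 16.7, 25.8 and 26.6 CPM in ICH+P7C3-A20, 40.9, 46.7 and 49.4 in ICH and 13.9, 15.98 and 12.5 in sham. The 3 groups did not overlap, with ICH highest and sham lowest. It rose in ICH by 1.69 ± 0.180 in log2 units against sham (edgeR adjusted p = 8.11e-05) and fell by 0.99 ± 0.177 in ICH+P7C3-A20 against ICH (edgeR adjusted p = 0.0102). Its close paralog Pnp2 is listed separately, so reads could be split between them. Aox1, an aldehyde oxidase that breaks down methylated nicotinamide, rose in ICH by 0.98 ± 0.184 against sham (edgeR adjusted p = 0.00291), and limma on unfiltered log2(FPKM + 1) alone among the alternatives ended that call (adjusted p = 0.0525). Ido1, which opens the kynurenine route, fell by 1.05 ± 0.334 in ICH against sham (edgeR adjusted p = 0.0416), a call that 6 of the 9 fits with 1 library left out did not keep (edgeR adjusted p up to 0.122), nor did the replicate block or limma on FPKM that was not quantile-scaled (adjusted p up to 0.196).

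Against sham, ICH+P7C3-A20 brains had 2 of 9 precursor genes and 2 of 18 consumers called, all higher, beside 5.32% of all genes. edgeR called 0 of 10 kynurenine genes there, with 1 at an unadjusted p under 0.05, and DESeq2 called 0 as well. Bst1 rose by 2.67 ± 0.486 in log2 units (edgeR adjusted p = 0.0102) and Parp3 by 1.43 ± 0.300 (edgeR adjusted p = 0.0207). Aox1 rose by 0.73 ± 0.183 and Pnp by 0.71 ± 0.177 (edgeR adjusted p = 0.0474 and 0.0454). Leaving out any 1 library ended the Aox1 call, leaving out any but ICH+P7C3-A20 1 ended the Pnp call, and the Parp3 call was lost without ICH+P7C3-A20 2 or 3 or sham 1 or 2, with edgeR adjusted p up to 0.151, 0.183 and 0.0919. The Bst1 call held with each library left out. All 4 calls were lost in every limma fit and with the compared groups fitted alone, those of Aox1 and Pnp also without a filter on low counts, and that of Aox1 also with RLE scaling and with the replicate block. In the other direction, DESeq2 called the precursor gene Nt5e lower than in sham (log2 change -0.72, adjusted p = 0.0157) and Tnks lower (-0.29, adjusted p = 0.0433). edgeR without sham 2 also called Nt5e lower (-0.90, adjusted p = 0.0175).

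The genes whose levels followed Nampt most closely were found by the root mean square difference of log2 CPM, each gene centred on its own mean over the 9 libraries, among 10744 genes with a mean of at least 10 CPM. They were Gm12715 at 0.0447, Sptlc2 at 0.0559, Prep at 0.0625, Isg20l2 at 0.0687 and Atg5 at 0.0692, where the median gene differed by 0.303. Sptlc2, a subunit of the first enzyme of sphingolipid synthesis, averaged 36.1 CPM in ICH+P7C3-A20, 46.7 in ICH and 36.9 in sham. Prep, a prolyl endopeptidase, averaged 28.3, 36.4 and 29.6 CPM and Atg5, an autophagy gene, 15.8, 20.3 and 16.2 CPM in the same groups. On log2(FPKM + 1), 3 of the 5 were again the closest. The 9 libraries share depth and marker differences, and closeness over them is a description.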

How the data were processed

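Libraries of 9 mouse brains were stranded and made from polyadenylated RNA, per the labels' protocols. The submitters' processing notes name cutadapt 1.9, HISAT2 2.0.4 and StringTie 1.3.4d. Neither a genome build nor the step behind the counts is given there. The authors deposited FPKM and estimated counts for each gene. The estimated counts are whole in the deposited table, so rounding changed none. Library totals of 51537047 to 63324728 limit precision for low genes, and p-values cover the spread between mice.

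With edgeR 4.0.16 in R 4.3.3, 21900 genes passed filterByExpr (minimum count of 10 and total of 15). TMM factors scaled the libraries, and the model fitted 3 group means with a robust quasi-likelihood test. CPM used TMM-scaled totals, and TPM was the deposited FPKM rescaled to a common sum. The script was tested on simulated counts. Alternatives were RLE scaling, no filter, DESeq2 1.42.0, limma 3.58.1 on log2 FPKM (pseudocounts 1 and 0.1, at least 0.5 FPKM in 3 libraries or no filter, and quantile scaling), compared groups alone, a replicate block, each library left out and, chosen after seeing the data, a mitochondrial covariate. Named genes were all members, every other pathway gene called in at least 1 comparison, and the 5 genes closest to Nampt. Eef1d, Pnp2, Parp1, Sarm1, Haao, Kmo, Nt5e, the sirtuins and genes overlapping members were named after their values were seen. Members and lists were chosen with earlier results of these data known. Positions are the table's. Of its genes 34996 have IDs in GENCODE M21 (GRCm38), 31972 at the identical position and strand, as have 8 of 10 members. BLASTN 2.17.0 found no transcript of another gene sharing 300 bases at 90% identity with a member. Figures used matplotlib 3.10.9 in Python 3.11.15.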

Additional observations from a re-analysis of the deposited data

How the results depend on the processing

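The direction of every called member change held under all alternatives run. The number of members called for ICH minus sham was 4 in the fit reported, 5 with DESeq2 and with the mitochondrial covariate, 2 with no filter on low counts and with limma on log2(FPKM + 1) or log2(FPKM + 0.1), 1 with limma on log2(FPKM + 1) without a filter, and 1 to 4 with each library left out. For ICH+P7C3-A20 minus ICH it was 1 in the fit reported, 0 with the 3 limma fits on FPKM that were not quantile-scaled, and 0 to 1 with each library left out. For ICH+P7C3-A20 minus sham it was 0 throughout. The cause was not tested.

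Changes near 0 turned sign. For ICH+P7C3-A20 minus sham, Nmnat1 was 0.0167 with the replicate block and -0.10 to 0.13 with a library left out, Nmrk1 was 0.00406 with limma on log2(FPKM + 1), filtered or not, 0.00992 with a pseudocount of 0.1, 0.0116 with the replicate block and -0.17 to 0.23 with a library left out, and Nadsyn1 was -0.0490 on quantile-normalized FPKM. For ICH+P7C3-A20 minus ICH, Nmnat3 was -0.223 to 0.0343 with a library left out. For ICH minus sham, limma on quantile-normalized FPKM gave a median of -0.10 over all genes, against 0.03 with limma on log2(FPKM + 1). Quantile scaling split calls into 2717 higher and 3362 lower, against 2803 and 1227 in that limma fit. The edgeR fit reported, which tested another set of genes, had 3418 and 2283.

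Deviations of same-numbered libraries from their group means correlated at -0.128 to 0.0919 over genes, so the numbers were not taken as pairs. The largest value between libraries of different groups was 0.192, for ICH+P7C3-A20 2 and ICH 3. Those libraries and sham 3, the low-mitochondrial library of each group, correlated with each other at 0.0477 to 0.192. With the replicate block the members called were 4, 1 and 0, and the genes called 5326, 1697 and 944, against 5701, 1914 and 1165. DESeq2 called 3476 and 2109 genes for ICH+P7C3-A20 minus ICH and minus sham, limma without a filter 3208, 961 and 135 in the 3 comparisons, limma with pseudocounts of 1 and 0.1 395 and 532 for ICH+P7C3-A20 minus sham, quantile scaling 552, and the compared groups alone 435. The limma fit with a pseudocount of 0.1 called 1227 for ICH+P7C3-A20 minus ICH. With a library left out the counts were 4075 to 6091, 571 to 2695 and 538 to 1434. Depth limits Qprt, which could not be tested with the FPKM filter.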
